A study of Mus musculus with 16 samples.

Results

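The transcripts of 9 genes that coat, fuse or feed the lipid droplets of liver cells, or carry the lipid that leaves them, were followed in livers of young and adult mice after diethylnitrosamine (DEN). The 9 genes, out of 47719 with a count in any library, were Apoa4, Fabp2, Vnn1, Cidec, Cidea, Plin2, Plin4, Plin5 and G0s2, taken by symbol. Apoa4, Fabp2, Vnn1 and Cidec were picked because their levels fell between day 2 and day 6 in 6-month-old mice, so that fall is described below without a test. The other 5 genes belong to the same lipid droplet biology and were not picked on a value.

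A lipid droplet is a core of triglyceride under a single layer of phospholipid, and the proteins on its surface set how fast the fat is stored or released. Perilipins shield the core from lipases, the CIDE proteins move lipid from small droplets to larger ones, and G0s2 blocks the lipase that starts triglyceride breakdown. In liver these genes are known to rise with fasting, a fatty diet or steatosis, many of them under the fatty acid receptors PPARalpha and PPARgamma. Apoa4 is a lipoprotein apolipoprotein known to rise with liver fat, Fabp2 is the intestinal fatty acid binding protein, and Vnn1 is a pantetheinase known as a PPARalpha target.

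The study asked how the liver of young and adult mice answers DNA damage. Wild-type C57BL/6 males of 1 month (labelled 3 to 4 weeks) and 6 months were given 1 intraperitoneal injection of DEN, which liver cells convert to a DNA-alkylating agent, and livers were taken 2 or 6 days later. The dose is labelled 25 mg per kg of body weight. Controls, labelled day 0, were 2 libraries at each age, and each DEN group had 3 libraries, which made 16 libraries in 6 groups. Each library held equal RNA from 3 mice, so the spread between libraries is between pools and not between single mice. Controls were not matched to a day, so DEN cannot be told apart from the injection or from the days that passed.

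The libraries held 19039330 to 34459774 counted reads, with a median of 26125036.5. Levels are given as counts per 1000000 reads, with each library's total of counted reads scaled by its TMM factor (CPM), unless a log2 difference is named. The 13 hepatocyte markers summed to 48659 to 84780 CPM in every library. Of 12 intestinal epithelium markers, Cdx1, Cdx2 and Fabp6 were at 0 in all libraries, and Sis, Alpi and Muc2 stayed under 0.1 CPM. The list summed to 124 to 236 CPM, nearly all of it Anpep, a peptidase that hepatocytes also make, at 115 to 223 CPM, with Lgals4 at 5.79 to 17.7 CPM, Slc5a1 at 0.511 to 1.46 CPM and Vil1, Lct and Cdh17 below those. Of 10 adipocyte markers, Lep was at 0 in all libraries, and Adipoq, Retn, Plin1, Adig and Slc36a2 stayed under 0.1 CPM. The others were Fabp4 at 4.93 to 12.5 CPM, Cfd at 0 to 2.29, Tusc5 at 0.0284 to 0.767 and Acvr1c at 0.0376 to 0.353 CPM. A clock-phase score set 10 genes in phase with Dbp against 5 in phase with Arntl, as a difference of their average log2 CPM, and ranged from -2.29 to 4.91. It was lowest in replicate 2 of 1-month day 6, replicate 3 of 1-month day 2 and replicate 2 of the 1-month controls. Values without those 3 libraries are given where they change a call.

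The DNA just before the annotated gene of 5 members is shown because Apoa4, Fabp2 and Cidec were picked on a shared fall, and Plin2 and Plin5 differed between the ages in opposite directions. The stretches come from RefSeq (build GRCm38.p6), which held 9 windows for 7 members. Each stretch runs 5′ to 3′ along the gene up to the first base of the annotated gene. The RefSeq start site can lie inside that gene, so 102 of the 250 bases before it are shown for Apoa4 and 202 for Plin5. Capitals mark CAAAGT, the first letters of the known HNF4A site, AGGTCA, the core element of many nuclear receptor sites, both searched on both strands with no overlap between them, and TATAA, searched on the strand of the gene.
The Apoa4 stretch is chr9:46240594-46240695 on the plus strand, that of Fabp2 is chr3:122894822-122895071 on the plus strand, and that of Cidec is chr6:113435761-113436010 on the minus strand. The Plin2 stretch is chr4:86670061-86670309 and that of Plin5 is chr17:56117597-56117798, both on the minus strand.
Apoa4: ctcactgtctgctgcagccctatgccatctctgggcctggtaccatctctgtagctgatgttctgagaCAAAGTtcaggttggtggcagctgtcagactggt
Fabp2: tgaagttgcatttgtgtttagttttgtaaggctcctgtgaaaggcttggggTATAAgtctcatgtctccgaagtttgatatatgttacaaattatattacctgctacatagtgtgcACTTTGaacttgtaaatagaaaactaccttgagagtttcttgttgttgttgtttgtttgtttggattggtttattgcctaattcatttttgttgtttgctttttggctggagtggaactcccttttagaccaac
Cidec: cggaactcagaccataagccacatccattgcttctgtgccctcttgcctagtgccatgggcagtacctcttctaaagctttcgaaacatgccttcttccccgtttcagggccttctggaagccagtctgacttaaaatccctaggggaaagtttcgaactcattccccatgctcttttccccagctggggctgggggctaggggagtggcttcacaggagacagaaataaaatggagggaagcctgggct
Plin2: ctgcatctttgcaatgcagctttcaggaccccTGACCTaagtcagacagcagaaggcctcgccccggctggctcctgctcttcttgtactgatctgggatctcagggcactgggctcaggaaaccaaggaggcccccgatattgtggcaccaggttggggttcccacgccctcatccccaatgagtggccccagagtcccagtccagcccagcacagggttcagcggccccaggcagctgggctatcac
Plin5: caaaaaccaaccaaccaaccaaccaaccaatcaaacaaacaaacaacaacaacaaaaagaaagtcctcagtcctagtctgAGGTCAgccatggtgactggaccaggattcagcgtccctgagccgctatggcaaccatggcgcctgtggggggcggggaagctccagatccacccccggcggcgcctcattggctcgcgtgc
Apoa4 and Fabp2 each held 1 match to CAAAGT, which 12.6% of all 32851 windows held in the 250 bases before the start site. Plin2 and Plin5 each held 1 match to AGGTCA, which 14% of windows held. The other RefSeq window of Plin5, inside the annotated gene, held 0. TATAA, in 16% of windows, was found before Fabp2, Plin4 and Plin5, and for Plin5 it lay inside the annotated gene and outside the letters shown. The letters searched were picked with the sequences in view, and a match says nothing of whether a factor binds.

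Per kilobase of exon, Plin2 was the most abundant member, with a mean over the 6 groups of 112 CPM per kb and group means from 84.8 to 155. Fabp2 followed with a mean of 84.4, Apoa4 with 82.3 and G0s2 with 60.8 CPM per kb, and the group means of these 4 genes overlapped. Vnn1 reached 24.5 and Plin5 21.2 CPM per kb, again with overlapping group means. Cidec at 2.26 and Plin4 at 1.81 CPM per kb were far below, with group means of Plin4 up to 2.93 and of Cidec from 1.04 to 5.01. Cidea, at 0.0808 CPM per kb, lay below every other member in every group.

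Apoa4 was high at day 2 and low at day 6 in 6-month-old livers. Its gene lies on chromosome 9 at 46240696 to 46243459 (plus strand, build GRCm38). In 6-month-old mice it stood at 85.8 and 101 CPM in the controls, at 200, 179 and 183 CPM at day 2, and at 70.0, 57.2 and 60.3 CPM at day 6. Every day 2 library lay above both controls and every day 6 library below them. The level at day 6 was 2.99-fold lower than at day 2 (log2 fold change -1.58, SE 0.24). At day 2 it was 2.00-fold higher than in controls (log2 fold change 1.00, SE 0.27), and at day 6 1.49-fold lower (-0.58, SE 0.26).

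In 1-month-old mice Apoa4 stood at 177 and 196 CPM in controls, at 156, 277 and 189 CPM at day 2, and at 132, 227 and 119 CPM at day 6. The 3 groups overlapped. The 6-month libraries of day 2 fell within this range, while the 6-month controls and day 6 libraries all lay below the lowest 1-month library. On the other strand Apoa4 shares its place with Gm10680, whose level of 30.3 to 157 CPM followed Apoa4 with r = 0.99 over 16 libraries. The sources used here do not say whether reads were assigned by strand, so reads of the stretch that the pair shares cannot be told apart. How much exon the pair shares was not measured. Gm10680 was singled out after its values were seen.

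Fabp2 showed the same order at 6 months with a smaller range. It lies on chromosome 3 at 122895072 to 122899506 (plus strand). It stood at 92.0 and 91.0 CPM in 6-month controls, at 108, 96.7 and 95.5 CPM at day 2, and at 73.2, 58.6 and 59.3 CPM at day 6. No day 6 library reached a day 2 library or a control. The level at day 6 was 1.57-fold lower than at day 2 (log2 fold change -0.65, SE 0.18), and 1.44-fold lower than in controls (-0.52, SE 0.20). At day 2 it was within 1.10-fold of the controls (0.13, SE 0.20). The 1-month libraries ran from 62.5 to 120 CPM.

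Vnn1 was led by single libraries. It stood at 51.7 and 69.6 CPM in 6-month controls, at 137, 44.0 and 66.3 CPM at day 2, and at 59.7, 27.1 and 28.9 CPM at day 6. The day 6 libraries overlapped both other groups. The level at day 6 was 2.14-fold lower than at day 2 (log2 fold change -1.10, SE 0.42), and without replicate 1 of 6-month day 2 the difference was -0.51. Against controls it was 1.36-fold higher at day 2 (0.45, SE 0.47) and 1.57-fold lower at day 6 (-0.65, SE 0.47), and without the same library the difference at day 2 turned to -0.14.

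Cidec, the CIDE protein that drives growth of single large droplets, was scarce in 1-month livers and reached its highest levels in the 6-month groups. It lies on chromosome 6 at 113424634 to 113435760 (minus strand). It stood at 10.8 and 7.79 CPM in 6-month controls, at 12.1, 3.34 and 5.41 CPM at day 2, and at 4.30, 1.41 and 1.91 CPM at day 6. The day 6 libraries lay below both controls and overlapped day 2. The level at day 6 was 2.73-fold lower than at day 2 (log2 fold change -1.45, SE 0.55), and without replicate 1 of 6-month day 2 the difference was -0.78. Against controls it was 3.63-fold lower at day 6 (-1.86, SE 0.60) and 1.33-fold lower at day 2 (-0.41, SE 0.58). Single libraries moved both, to -2.46 at day 6 without its replicate 1 and to -1.08 at day 2 without its replicate 1.

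The highest day 2 library at 6 months was replicate 1 for Apoa4, Fabp2, Vnn1 and Cidec alike, and the highest day 6 library was again replicate 1 for all 4 genes. At 1 month the highest day 2 library was replicate 2 for all 4, at 277 CPM for Apoa4, 120 for Fabp2, 118 for Vnn1 and 3.57 for Cidec.

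**Figure D1:**
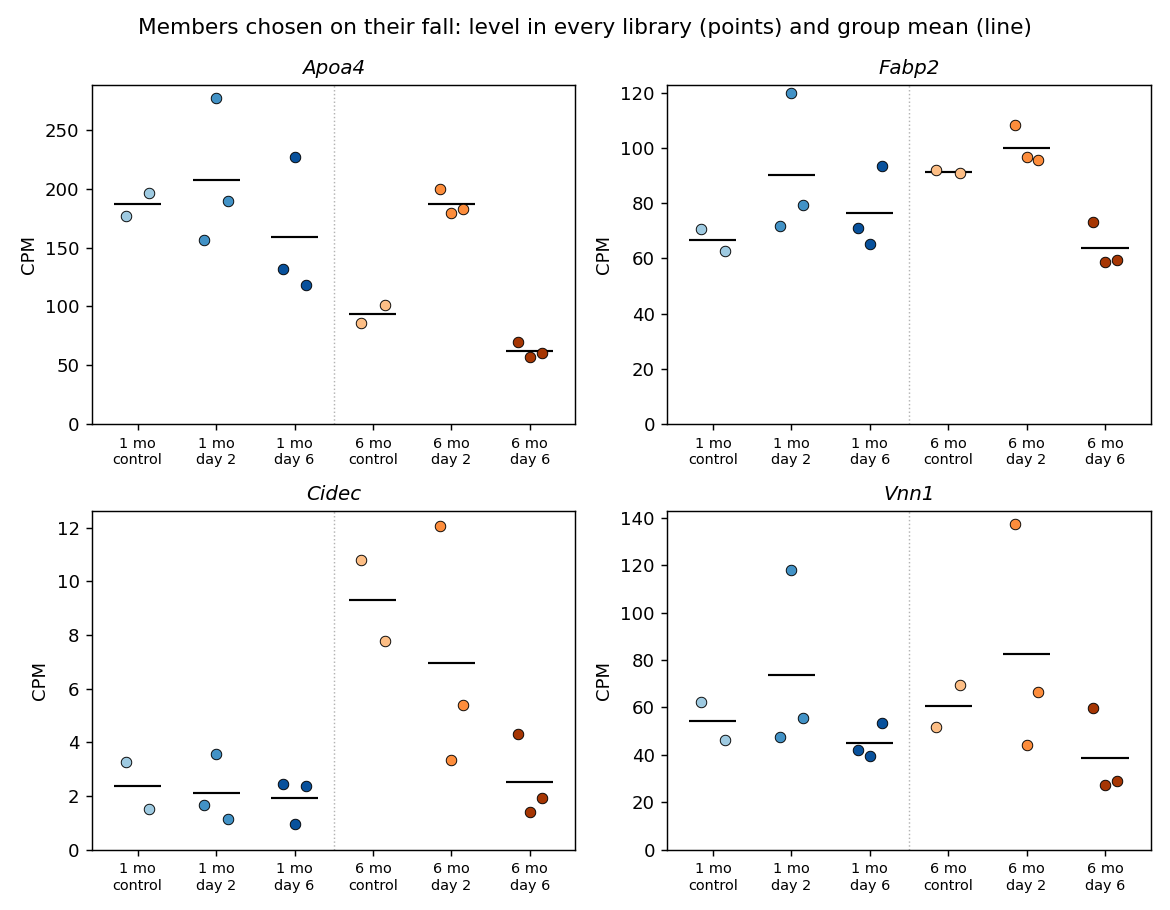
Level of Apoa4, Fabp2, Cidec and Vnn1 in CPM (y axis, from 0) in the 6 groups (x axis), with a point for each library and a line at the group mean. In 6-month-old mice Apoa4 stood at 57.2 to 70.0 CPM at day 6 and at 179 to 200 CPM at day 2, and in 1-month-old mice the 3 groups overlapped.

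The perilipins and G0s2 showed smaller differences over the same days. On GRCm38, Plin2 lies on chromosome 4 at 86648386 to 86670060, Plin4 on chromosome 17 at 56100591 to 56109803, Plin5 on chromosome 17 at 56111601 to 56117596 and G0s2 on chromosome 1 at 193272161 to 193273217, all on the minus strand. G0s2 overlaps Lamb3 and Plin4 overlaps Hdgfrp2, on the opposite strand in both cases, so reads of the stretches they share cannot be told apart either. The overlap is of whole gene spans, and how much exon is shared was not measured. From day 2 to day 6 at 6 months the log2 difference was -0.23 for Plin2 (SE 0.28), -0.10 for Plin5 (SE 0.17), 0.02 for G0s2 (SE 0.32) and 0.23 for Plin4 (SE 0.52). All 4 overlapped between the days. The median over all genes tested was 0.00189. Among all 15684 genes tested, 0.0128% passed an adjusted p under 0.1 in this comparison, and 6.87% had day 6 libraries that did not overlap day 2. The members that did not overlap were Apoa4 and Fabp2, both picked on this comparison.

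The same interval at 1 month was not used to pick the genes and could be tested. The quasi-likelihood test of edgeR (Benjamini-Hochberg adjusted p under 0.1) called 0 of the 8 members between these days at 1 month, beside 0.00638% of all genes. G0s2 was the 1 member at an unadjusted p under 0.05, beside 5.06% of all genes, and DESeq2 called 0. G0s2 was also the 1 member whose libraries did not overlap, beside 6.84% of all genes. Apoa4 had a log2 difference of -0.38 (SE 0.23, adjusted p = 0.951) and Vnn1 of -0.72 (SE 0.42, adjusted p = 0.951). Fabp2 had -0.24 (SE 0.18, adjusted p = 0.960) and Cidec -0.16 (SE 0.58, adjusted p = 0.988). The 95% interval ran from -0.88 to 0.11 for Apoa4, from -1.62 to 0.19 for Vnn1 and from -1.42 to 1.09 for Cidec. For Cidec the sign turned without replicate 2 of 1-month day 2 (0.46), and for Fabp2 the same library moved the difference to 0.02.

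The shift of Apoa4 between the ages was also set out as a difference of differences, as a description. The change from controls to day 2 was larger at 6 months than at 1 month by 0.85 on the log2 scale (SE 0.37), and the change to day 6 was lower at 6 months than at 1 month (-0.35, SE 0.37). Without replicate 2 of 1-month day 2 the former was 1.12, and without replicate 2 of 1-month day 6 the latter was -0.01. For the other picked genes the day 6 value was -1.54 in Cidec (SE 0.89), -0.72 in Fabp2 (SE 0.29) and -0.38 in Vnn1 (SE 0.67). Their day 2 values were -0.26 (SE 0.87), -0.31 (SE 0.29) and -0.002 (SE 0.66) in the same order.

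After DEN in 1-month-old mice the largest difference from controls among the members was that of G0s2. G0s2 inhibits Pnpla2, the first lipase of triglyceride breakdown. It stood at 57.2 and 56.5 CPM in controls, at 21.9, 29.2 and 18.8 CPM at day 2, and at 38.5, 49.4 and 32.6 CPM at day 6. All DEN libraries lay below both controls, and all day 6 libraries above those of day 2. At day 2 it was 2.44-fold lower than in controls (log2 fold change -1.29, SE 0.35), which did not pass the edgeR test (adjusted p = 0.448) and passed DESeq2 (adjusted p = 0.0840). It also passed edgeR with no filter on low counts (adjusted p = 0.00305), and over all settings the adjusted p ran from 0.00305 to 1.00. At day 6 the log2 difference from controls was -0.50 (SE 0.35, edgeR adjusted p = 1.00), and from day 2 it was 0.78 (SE 0.32, edgeR adjusted p = 0.951).

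At day 2 in 1-month-old mice edgeR called 0 of 8 members, beside 0.0191% of all genes. G0s2 was the 1 member at an unadjusted p under 0.05, beside 7.16% of all genes, and the 1 member called by DESeq2. The log2 differences ran from -1.29 in G0s2 to 0.45 in Vnn1, and Vnn1 turned to -0.07 without replicate 2 of 1-month day 2. Libraries did not overlap for 3 members, G0s2 and Plin4 lower and Fabp2 higher, beside 16.7% of all genes. Plin4, a perilipin of small, newly filled droplets in fat tissue and muscle, stood at 21.2 and 12.6 CPM in controls and at 11.6, 8.57 and 4.31 CPM at day 2 (log2 difference -1.05, SE 0.56, edgeR adjusted p = 0.737). At day 6 edgeR called 0 of 8 members, beside 0.00% of all genes, 0 were at an unadjusted p under 0.05, beside 2.72%, and DESeq2 called 0. G0s2 was the 1 member with no overlap, beside 14.4% of all genes. The differences ran from -0.50 in G0s2 to 0.20 in Fabp2.

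In 6-month-old mice the 4 genes that were not picked on their values, Plin2, Plin4, Plin5 and G0s2, were all lower than controls at both days, and none passed the test. At day 2 edgeR called 0 of these 4, beside 0.319% of all genes, with Plin4 the 1 gene at an unadjusted p under 0.05, beside 4.01%, and DESeq2 called 0. At day 6 edgeR called 0 of 4, beside 0.249% of all genes, with 0 at an unadjusted p under 0.05, beside 2.99%, and DESeq2 called 0. Plin4 stood at 17.5 and 9.10 CPM in controls, at 8.23, 1.96 and 6.70 CPM at day 2, and at 8.13, 2.93 and 8.65 CPM at day 6. Both DEN groups lay below the controls, with log2 differences of -1.22 at day 2 (SE 0.57) and -0.995 at day 6 (SE 0.57), both at an edgeR adjusted p of 1.00.

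Plin2, the perilipin that coats most droplets of the hepatocyte, stood at 446 and 644 CPM in 6-month controls, at 450, 406 and 478 CPM at day 2, and at 325, 368 and 444 CPM at day 6. The day 6 libraries lay below both controls, narrowly (-0.52, SE 0.31, edgeR adjusted p = 1.00), and day 2 overlapped them (-0.29, SE 0.31, edgeR adjusted p = 1.00). G0s2 stood at 68.6 and 104 CPM in controls, at 51.7, 75.8 and 38.1 CPM at day 2, and at 74.2, 64.8 and 29.5 CPM at day 6. Its groups overlapped, with log2 differences of -0.64 at day 2 (SE 0.35) and -0.62 at day 6 (SE 0.35), both at an edgeR adjusted p of 1.00. Plin5, which ties droplets to mitochondria, differed from controls by -0.28 at day 2 (SE 0.19) and by -0.38 at day 6 (SE 0.19), both again at an edgeR adjusted p of 1.00.

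Among all 8 members, Apoa4 and Fabp2 lay above the 6-month controls at day 2 with no overlap and Plin4 and Plin5 below them, beside 21.9% of all genes. At day 6 no member lay above and 6 lay below, which were Apoa4, Fabp2, Cidec, Plin2, Plin4 and Plin5, beside 9.97% of all genes below and 19.5% in either direction. The controls are the same 2 libraries in both comparisons, and Apoa4, Fabp2 and Cidec were picked on their fall to day 6.

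**Figure D2:**
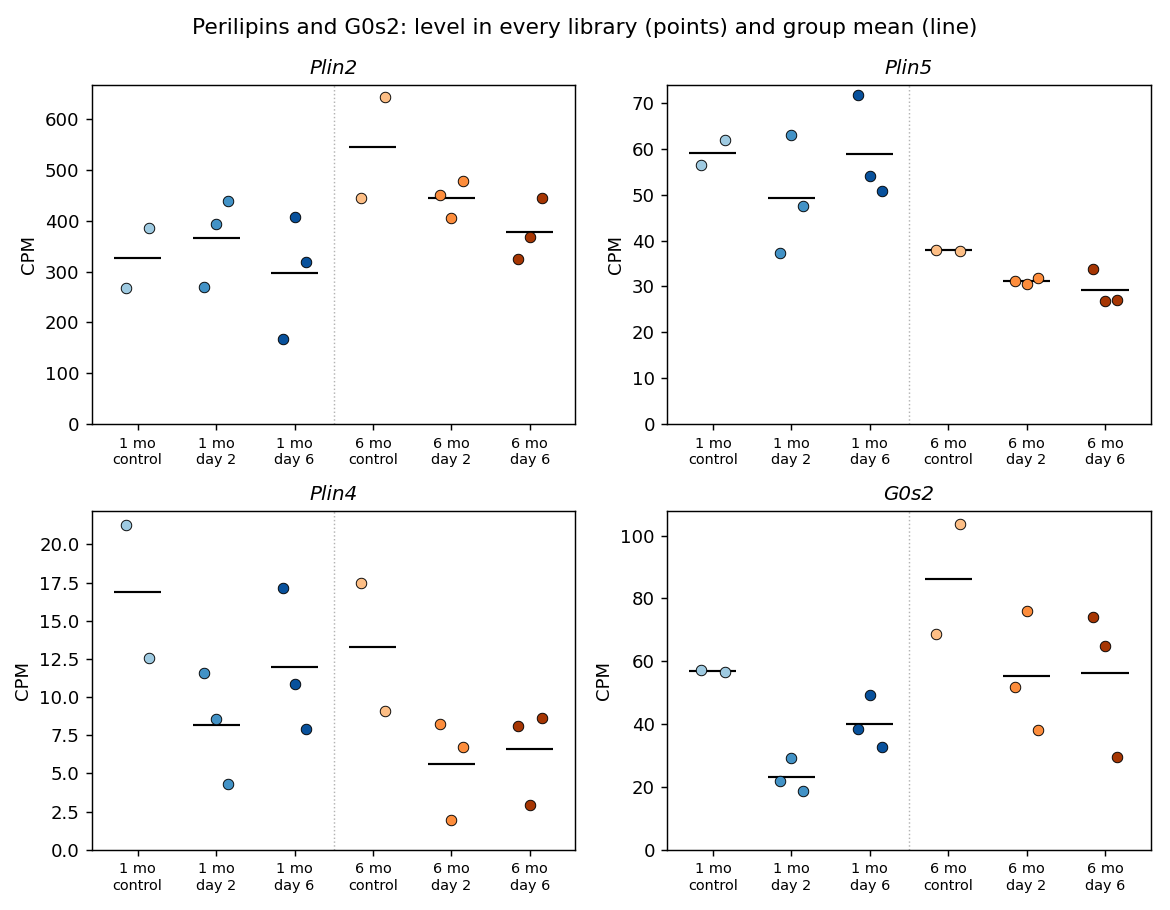
Level of Plin2, Plin5, Plin4 and G0s2 in CPM (y axis, from 0) in the 6 groups (x axis), with a point for each library and a line at the group mean. Plin5 stood at 26.9 to 38.0 CPM in the 6-month libraries and at 37.4 to 71.7 CPM in the 1-month libraries.

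The response to DEN was then compared between the ages. For Plin2, Plin4, Plin5 and G0s2 the difference between the ages passed the edgeR test for 0 of 4 genes at day 2, beside 0.00638% of all genes, and for 0 of 4 at day 6, beside 0.0128%. 0 were at an unadjusted p under 0.05 at day 2, beside 4.46%, or at day 6, beside 1.91%, and DESeq2 called 0. The differences ran from -0.46 in Plin2 to 0.64 in G0s2 at day 2 and from -0.50 in Plin4 to -0.12 in G0s2 at day 6. The 95% interval for G0s2 at day 2 was -0.43 to 1.72.

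The ages themselves were then compared. In controls alone, 2 libraries at each age, edgeR called 0 of 8 members, beside 2.67% of all genes, 1.61% higher and 1.06% lower. Apoa4, Plin5 and Cidec were the 3 at an unadjusted p under 0.05, beside 12.6% of all genes. DESeq2 called 2, Apoa4 (adjusted p = 0.0284) and Cidec (adjusted p = 0.0760). Apoa4 was 2.00-fold lower at 6 months (log2 fold change -0.9998, SE 0.29, edgeR adjusted p = 0.116), and Cidec was 3.88-fold higher (1.96, SE 0.68, edgeR adjusted p = 0.216). The difference of Cidec was 2.60 without replicate 1 of the 1-month controls and 1.51 without replicate 2. Both genes passed edgeR with the clock score as a covariate, Apoa4 at an adjusted p of 0.0701 and Cidec at 0.0353, and with no filter on low counts, at 0.00766 and 0.00558. Apoa4 passed edgeR when replicate 1 (adjusted p = 0.0849) or 2 (0.0704) of 1-month day 2 or replicate 2 of 1-month day 6 (0.0395) was left out of the shared estimate of spread. Plin5 passed, just, without replicate 2 of 1-month day 2 (edgeR adjusted p = 0.09998). Over all 23 other settings Apoa4 passed in 7, Cidec in 3 and Plin5 in 1. The highest adjusted p of edgeR or DESeq2 among them was 0.515 for Apoa4, 0.722 for Cidec and 0.587 for Plin5.

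In the same controls Plin5 had a log2 difference of -0.64 (SE 0.21, edgeR adjusted p = 0.189) and Plin2 of 0.74 (SE 0.34, adjusted p = 0.398). G0s2 had 0.60 (SE 0.39, adjusted p = 0.602), Fabp2 0.46 (SE 0.22, adjusted p = 0.436) and Vnn1 0.16 (SE 0.51, adjusted p = 0.957). Control libraries of the ages did not overlap for 6 of 8 members, beside 43.1% of all genes, with Cidec, Fabp2, G0s2 and Plin2 higher at 6 months and Apoa4 and Plin5 lower.

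After these levels had been seen, the 3 groups of each age were also compared as a whole, the mean of controls, day 2 and day 6 at 6 months against the same mean at 1 month. The day 2 and day 6 levels on which Apoa4, Fabp2, Vnn1 and Cidec were picked enter this mean, so these 4 genes are described without a test. Of the 4 genes not picked, edgeR called G0s2 and Plin2 higher at 6 months and Plin5 lower, beside 12.1% of all genes called higher and 10.5% called lower. Since the comparison was chosen with the values known, its p-values describe these libraries. DESeq2 called 3 of the 4 as well. Every member overlapped in at least 1 library between the ages, beside 3.68% of all genes that did not.

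Plin5 stood at 56.4 and 61.8 CPM in 1-month controls, at 37.4, 63.0 and 47.5 CPM at day 2 and at 71.7, 54.0 and 50.8 CPM at day 6. At 6 months it stood at 38.0 and 37.7 CPM in controls, at 31.1, 30.6 and 31.8 CPM at day 2 and at 33.7, 26.9 and 27.0 CPM at day 6. All but the lowest 1-month library lay above all 6-month libraries. Plin5 was 1.71-fold lower at 6 months (log2 fold change -0.77, SE 0.11, edgeR adjusted p = 3.6e-04), and it passed under all 22 other settings.

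Apoa4 was 1.78-fold lower at 6 months over the 3 groups (log2 difference -0.83, SE 0.15). The difference lay in controls and day 6, with means in controls of 93.4 CPM ± 10.8 (SD, n = 2) at 6 months against 187 CPM ± 13.4 (SD, n = 2) at 1 month. At day 6 the means were 62.5 CPM ± 6.66 (SD, n = 3) against 159 CPM ± 59.1 (SD, n = 3). At day 2 the means were 187 CPM ± 11.1 (SD, n = 3) at 6 months and 208 CPM ± 62.6 (SD, n = 3) at 1 month.

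Cidec was 2.56-fold higher at 6 months (log2 difference 1.36, SE 0.35), from 0.977 to 3.57 CPM over the 1-month libraries and from 1.41 to 12.1 CPM over the 6-month libraries. The day 6 libraries of 6-month-old mice overlapped those of 1-month-old mice. On leaving out the 3 low clock-score libraries the difference was 0.99. G0s2 was 1.71-fold higher (0.77, SE 0.20, edgeR adjusted p = 0.0170), with 29.5 to 104 CPM in 6-month and 18.8 to 57.2 CPM in 1-month libraries, and passed under all 22 other settings.

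Plin2 was 1.37-fold higher at 6 months (0.45, SE 0.17, edgeR adjusted p = 0.0950), with 325 to 644 CPM in 6-month and 167 to 439 CPM in 1-month libraries. This call was lost, at edgeR adjusted p of 0.108 to 0.263, without replicate 1 of the 1-month controls, replicate 1 or 2 of 1-month day 2, replicate 3 of 1-month day 6, replicate 2 of the 6-month controls, any 1 replicate of 6-month day 2, or replicate 2 or 3 of 6-month day 6. Plin4 had a log2 difference of -0.57 (SE 0.32, edgeR adjusted p = 0.255), Fabp2 of 0.11 (SE 0.11) and Vnn1 of 0.04 (SE 0.26). With no filter on low counts Plin4 passed too (edgeR adjusted p = 0.0535).

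Markers of 2 cell types moved with age in the same comparison. Of 13 hepatocyte markers 9 were called lower at 6 months and 0 higher, and of 10 macrophage markers 5 were called higher and 0 lower. Of 8 stellate cell markers 1 was called higher and 1 lower. Over all genes 12.1% were called higher and 10.5% lower. The summed hepatocyte markers reached 48659 to 58926 CPM in 6-month libraries against 55745 to 84780 CPM in 1-month libraries. The summed macrophage markers reached 492 to 923 CPM against 442 to 733 CPM. Their part in the differences of the members was not tested, and in bulk liver fewer cells of a type and less RNA per cell cannot be told apart.

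**Figure D3:**
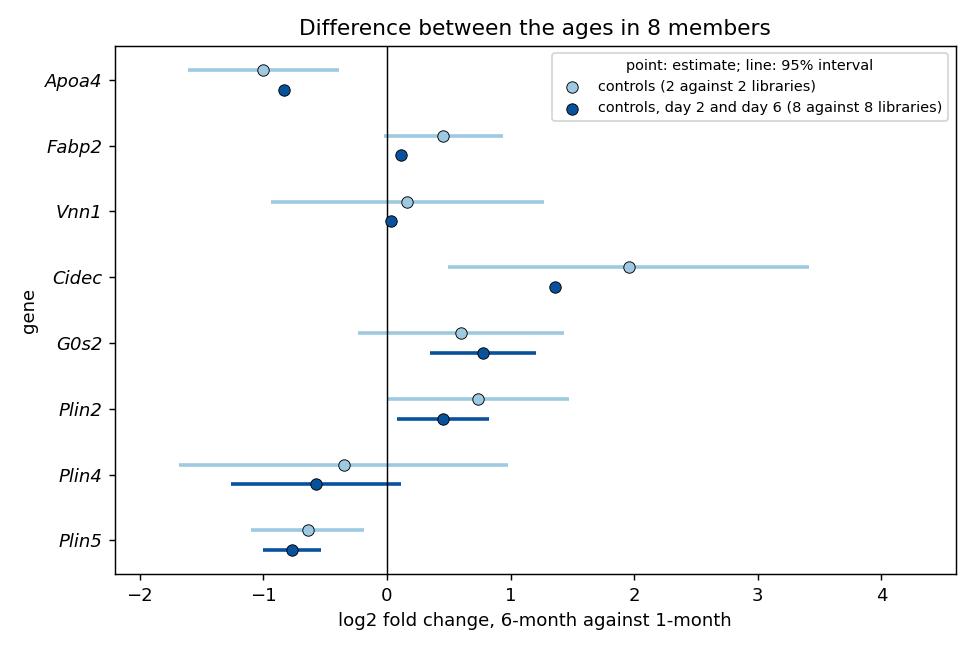
Log2 fold change of 8 members at 6 months against 1 month (x axis) by gene (y axis), in controls alone and over controls, day 2 and day 6. Lines are 95% intervals, left out over the 3 groups for the 4 genes picked on their values. Cidec lay highest, at 1.96 and 1.36, and Apoa4 lowest, at -0.9998 and -0.83.

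Cidea, a CIDE protein of brown fat and of fatty liver, was at the edge of detection and did not enter the tests. It had 33 counts in all 16 libraries, of which 28 came from 6-month-old mice. The 6-month controls held 9 and 10 counts, and no other library held more than 4. Over each group its raw CPM, with counts summed over the group, was 0.340 in the 6-month controls and 0.0346 in the 1-month controls. In the other groups it was 0.0135 to 0.0606. The 6-month controls were thus the group where Cidea and Cidec both stood highest.

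Of the 3 adipocyte markers tested, 1 moved with them and 1 the other way. Cfd, the adipocyte protease adipsin, stood at 2.29 and 1.11 CPM in 6-month controls, at 0.250, 0.0418 and 0.863 CPM at day 2 and at 0.0384, 0 and 0.0809 CPM at day 6, with 0 to 0.153 CPM at 1 month. It was called higher at 6 months in controls (log2 fold change 4.43, edgeR adjusted p = 0.0712) and lower at day 6 than in 6-month controls (-5.02, edgeR adjusted p = 0.0910). Tusc5, a membrane protein of fat cells, stood at 0.0467 and 0.0284 CPM in 6-month controls and at 0.767 and 0.442 CPM in 1-month controls. It was called lower at 6 months in controls (-3.91, edgeR adjusted p = 0.0330) and over the 3 groups (-1.68, edgeR adjusted p = 0.0126), where Cfd was called higher (2.44, edgeR adjusted p = 0.0569). It lay under 1 CPM and was named after its values were seen. Fabp4, at 4.93 to 12.5 CPM, was not called, and the median of the 3 was -0.27 in controls, beside -0.01 over all genes. Acvr1c, which did not enter the tests, ran from 0.156 to 0.353 CPM at 6 months and from 0.0376 to 0.268 CPM at 1 month. The 10 adipocyte markers summed to 9.73 to 11.8 CPM in 6-month controls and to 5.47 to 12.9 CPM over all libraries. Lep, Adipoq, Retn, Plin1, Adig and Slc36a2 stayed at or near 0 as given above.

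The wider list of 30 lipid droplet proteins, members included, was then read for DEN and for age. Of its 27 genes tested, 0 passed edgeR at day 2 or day 6 at either age. Their median log2 difference from day 2 to day 6 at 6 months was -0.03. In controls 1 of 27 was called higher at 6 months, Fitm1, beside 1.61% of all genes, and 0 lower. Fitm1, which helps droplets bud from the endoplasmic reticulum, ran from 4.72 to 11.2 CPM over the 1-month libraries and from 20.4 to 47.9 CPM over the 6-month libraries. It was 7.79-fold higher in 6-month controls (log2 fold change 2.96, SE 0.34, edgeR adjusted p = 5.5e-04). Over the 3 groups 4 of 27 were called higher, Fitm1, G0s2, Cidec and Plin2, and 4 lower, Plin5, Hsd17b13, Hsd17b11 and Aup1, beside 12.1% of all genes higher and 10.5% lower. These counts lay near the shares over all genes, and they hold Cidec, whose days at 6 months were used to pick it.

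Vnn3, a pantetheinase related to Vnn1, differed between the ages where Vnn1 did not pass the test. It held 47.2 to 66.8 CPM in 6-month libraries against 91.4 to 141 CPM in 1-month libraries, with no overlap, and was 1.97-fold lower in 6-month controls (-0.98, SE 0.18, edgeR adjusted p = 0.0158). The difference between Vnn1 and Vnn3 was itself not tested. Of the 7 fatty acid binding proteins and vanins tested, 1 was called higher over the 3 groups, the brain type Fabp7, and 2 lower, Vnn3 and the epidermal type Fabp5, beside 12.1% of all genes higher and 10.5% lower.

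Genes that feed or drain the droplet were read over the same days. Of 42 PPARalpha targets and fatty acid oxidation genes, edgeR called 0 from day 2 to day 6 at 6 months, with a median log2 difference of -0.246, beside 0.00189 over all genes. The same list had nearly the same median at 1 month, -0.245, beside -0.00416 over all genes, with 0 called. Cyp4a14, a fatty acid hydroxylase known as a sensitive PPARalpha target and one of a family of near-identical genes that could share reads, stood at 1576, 24.2 and 55.9 CPM at 6-month day 2 and at 41.0, 31.5 and 8.30 CPM at day 6. Replicate 1 of day 2 was the highest of all 16 libraries, as it was for Vnn1 and Cidec, and the fitted difference of -4.36 (SE 1.31) did not pass (edgeR adjusted p = 1.00). Cd36, a fatty acid transporter, stood at 126, 58.2 and 105 CPM at day 2 and at 63.3, 64.4 and 56.9 CPM at day 6 (-0.65, SE 0.24, edgeR adjusted p = 1.00).

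Between the ages, over the 3 groups, 6 of 10 PPARgamma-linked steatosis genes tested were called higher at 6 months and 2 lower, beside 12.1% of all genes higher and 10.5% lower. The higher ones included Cd36 (0.68, edgeR adjusted p = 0.00763), the receptor gene Pparg (0.72, edgeR adjusted p = 0.0314) and the acyltransferase gene Mogat1 (1.28, SE 0.29). The mean of Mogat1 stayed under 1 CPM in every group. The others were the members G0s2 and Plin2, called above, and Cidec, whose days at 6 months were used to pick it. The count of 6 thus repeats members already given. Vldlr, a receptor that takes up triglyceride-rich lipoprotein, was the gene of that list with the smallest p and was lower (-2.06, edgeR adjusted p = 2.4e-04), with 0.539 to 1.75 CPM in 6-month and 1.01 to 7.45 CPM in 1-month libraries. Of 42 PPARalpha targets and fatty acid oxidation genes 2 were called higher and 10 lower, against the same shares of all genes. The 2 higher ones were Cd36 and the member Plin2, which the PPARgamma-linked list counts as well. Of 13 triglyceride synthesis genes 1 was called higher and 5 lower, among them Dgat2 (-0.50, edgeR adjusted p = 0.0207), which makes triglyceride in its last step. Of 23 lipoprotein genes 2 were called higher and 11 lower, among the latter Apoa5 (-0.75, edgeR adjusted p = 7.3e-04), the neighbour of Apoa4. The 11 also hold Apoa4, whose days at 6 months were used to pick it, so its place among them is not a test.

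Across the 16 libraries, Vnn1 and Fabp2 were the pair of members most alike by log2 CPM, with Pearson r = 0.81. Once each group was centred on its mean, r was 0.78 for this pair, below that of Cidec and Vnn1. Cidec and Vnn1 had r = 0.63, and 0.85 when centred, and Cidec and Fabp2 0.67 and 0.74. Apoa4 had r = -0.07 with Cidec, 0.55 with Vnn1 and 0.44 with Fabp2. When centred, Apoa4 had r = 0.41 with Vnn1, 0.23 with Fabp2 and 0.04 with Cidec. Plin2 went against Cidec when centred (r = -0.40) and against Plin5 (-0.17). These values describe 16 libraries that share groups, and replicates of a group share their labels and depth range. Apoa4, Vnn1, Fabp2 and Cidec were picked on a fall between the DEN days in adult mice. That fall enters their r before centring, so likeness among them is partly set by the choice. Centring takes out the group means, which leaves fewer independent deviations than 16 libraries.

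**Figure D4:**
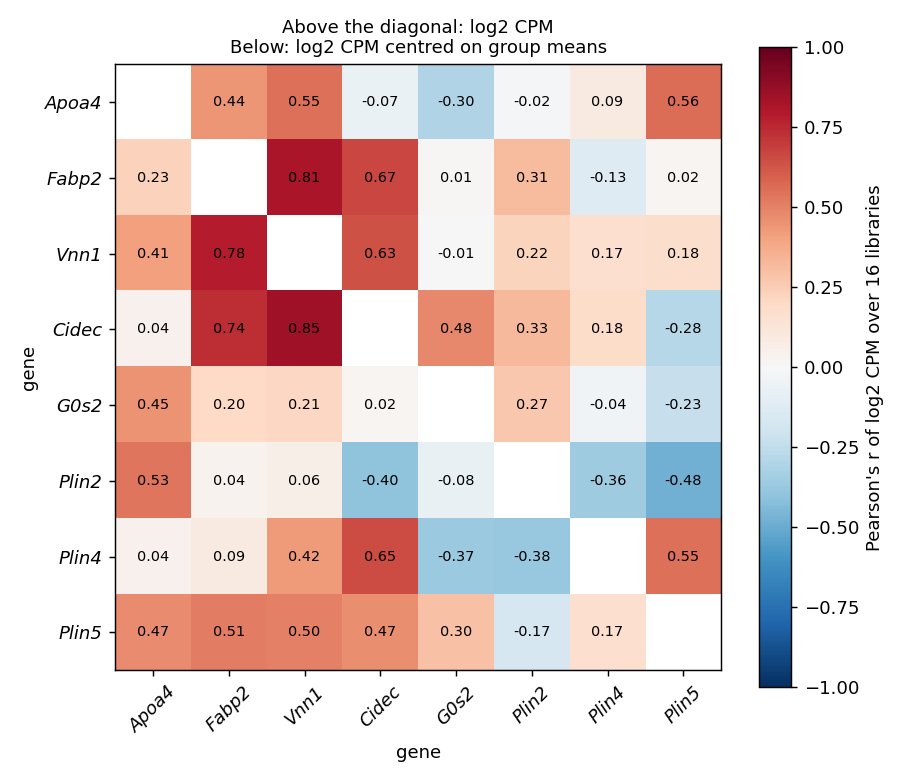
Pearson r of log2 CPM between 8 members over 16 libraries, above the diagonal as measured and below it after centring each group on its mean, with genes on both axes. Vnn1, Fabp2 and Cidec form the block of highest values, 0.74 to 0.85 when centred. These genes were picked on a fall between the DEN days in adult mice, which enters the values as measured.

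The clock score moved with some members within groups. Centred on the groups, it had r = 0.71 with Cidec and -0.70 with Plin2 over 16 libraries, and from -0.25 in Apoa4 to 0.45 in Fabp2 for the other 6. Its part in the differences above was not tested beyond the settings given beside them.

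The genes most like each member were taken over the same 16 libraries, by Pearson r of log2 CPM. For Vnn1 they were Dhrs4 (r = 0.93), Agpat9 (0.90) and the fatty acid oxidation gene Acadm (0.89). Fabp2 also had Dhrs4 in the first place (0.84), and Guk1 (0.84) was among its closest genes. Cidec was closest to Aldh3a2 (0.92), which oxidises fatty aldehydes, then Nap1l1 (0.85) and Mras (0.85). Apoa4 was closest to Pfkl (0.89), the liver phosphofructokinase, then Lonp1 (0.82) and Agpat3 (0.81). Plin2 was closest to Plscr1 (0.93), Plin5 to Pofut2 (0.93), Plin4 to Zfp12 (0.86) and G0s2 to Fzd7 (0.82). These are the highest of many values, and differences between ages and days enter them. After centring on group means, Plin2 was again closest to Plscr1 (0.96). The closest genes were then Anxa4 for Apoa4 (0.86), Psmb7 for Fabp2 (0.95), Hadha for Vnn1 (0.93) and Rcan1 for Cidec (0.95). For Plin5 it was Wdr77 (0.93), for Plin4 Fam133b (0.92) and for G0s2 Zfp59 (0.90).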

How the data were processed

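Liver RNA pools of 3 mice were sequenced by the authors (Illumina TruSeq kit, NextSeq). Per the labels and the study's methods, reads were trimmed with cutadapt 1.7.1l and aligned with TopHat2 2.0.13 to GRCm38 with Ensembl gene models. The deposited table holds raw counts per gene, which were used. It also holds 16 columns of normalized per-sample values and the authors' own fold changes and p-values from DESeq2 1.10.1, none of them used. The dose is given per kg in the labels and per g in the study's methods. The sources used here give neither the counting program nor whether it used strand.

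Counts of all 16 libraries were fitted in 1 model of the 6 groups with edgeR 4.0.16 (TMM, filterByExpr, glmQLFit, glmQLFTest), on 15684 genes, with Benjamini-Hochberg adjustment over all of them and calls at an adjusted p under 0.1. The script was tested on simulated data. CPM used TMM-scaled library sizes, and log2 CPM a prior count of 2. Exon lengths came from GENCODE M21. p-values measure the spread between pools of a group. Members and gene lists were chosen with earlier results of these data known. Named genes were all members, a companion list, up to 4 called genes with the smallest p per other list and comparison, and the 3 genes most like each member, at 1 CPM or more, of which 1 gene is not reported here. List symbols with 2 identifiers were left out. DESeq2 1.42.0 and the other settings tried are given at the end.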

Additional observations from a re-analysis of the deposited data

How the results depend on the processing

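For the 8 planned counts of members called, a main count of 0 moved in 2 comparisons. At 1-month day 2 against controls it became 1 with no filter on low counts and 1 with DESeq2. In 6-month against 1-month controls it became 2 with no filter, 2 with the clock score as a covariate, 2 with DESeq2 and 0 to 2 when 1 library was left out. With the replicate block it became 1, Apoa4 (edgeR adjusted p = 0.0723). The labels do not say what same-numbered libraries share beyond the number. Their deviations from group means correlated at -0.30 to 0.59 (median 0.048), over 0.1 in 16 of 36 pairs. Pairs of different numbers correlated at -0.59 to 0.54 (median -0.041), over 0.1 in 16 of 70. Of 16 libraries 11 lay closest to one of their own number, and what lies behind this was not tested. The block changed no other planned count. The age comparison over the 3 groups, added after the data were seen, called 3 of the 4 members not picked on their values, and 2 to 4 under the 22 other settings.

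Small differences turned sign. Cidec from day 2 to day 6 at 1 month reached 0.18 with the clock covariate and ran from -0.46 to 0.46 without 1 library, and Fabp2 from -0.41 to 0.020. Vnn1 in controls was -0.0404 on leaving out the 3 low clock-score libraries and -0.066 to 0.39 without 1 library, at 1-month day 2 -0.068 to 0.70 and at 6-month day 2 -0.14 to 0.75. From day 2 to day 6 at 6 months Plin4 ran from -0.17 to 0.60 and G0s2 from -0.24 to 0.34 without 1 library. Vnn1 over the 3 groups was -0.0024 with the replicate block, -0.019 with the clock covariate, -0.13 without the 3 libraries and -0.17 to 0.21 without 1 library. The difference between the ages at day 6 ran from -0.92 to 0.042 for Plin4 and from -0.38 to 0.21 for G0s2 without 1 library, and was 0.064 for G0s2 without the 3 libraries. The cause was not tested. With 2 controls at each age and pools of 3 mice, differences near 1 on the log2 scale could pass or miss the threshold.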
